A study of Mus musculus with 6 samples.

Results

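The genes described here are the repressors that drive epithelial-mesenchymal transition (EMT) and the classical cadherins with 2 of their epithelial companions. They were chosen by name: every array probe whose symbol in the authors' deposited table, or whose target name where that symbol was empty, was Zeb1, Zeb2, Snai1, Snai2, Twist1, Cdh1, Cdh2, Cdh3, Epcam or Esrp1. Of these 10 genes 8 had a probe, 16 probes in all, out of 17759 named genes and 25697 probes on the array. No probe matched Snai2 or Epcam, and both are not analysed here. The 10 genes comprise 5 repressors (4 measured), 4 genes of the epithelial state (Cdh1, Cdh3, Epcam and Esrp1, 3 measured), called the junction genes below, and Cdh2.

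The samples were total RNA from E14Tg2a, a feeder-independent line of mouse embryonic stem (ES) cells, on 1-colour Illumina bead arrays. There were 3 control samples (source name FloRes) and 3 REST KO samples (source name FloResCre), 1 array each, and both genotypes were of the same line. REST is a zinc-finger repressor that keeps neuronal genes silent in non-neuronal cells, and the comparison asks what its loss does to the ES cell transcriptome. The authors' table names its comparison group Rest flox, whereas the genotype labels read only control and REST KO, and they do not say which exons were deleted or whether the samples came from separate clones or cultures. The controls lay on the first 3 positions of 1 chip and the REST KO samples on the next 3, so genotype and chip position cannot be told apart.

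Each array detected 42.5% to 44.9% of its probes (detection p under 0.05) at a median raw signal of 120.5 to 132.8. The single Rest probe was detected on none of the 6 arrays (4.94, 4.97 and 5.11 in control and 4.87, 4.92 and 5.08 in REST KO, normalized log2 intensity), so it did not check the genotype labels. One array stood apart from its group: by the median squared log2 difference over tested probes, control replicate 2 differed from the other controls by 5.43 and 5.93 times what bead error alone gives, but from the REST KO arrays by 3.73 to 4.37 times. Member differences and list counts that move with it are given with and without it. All 8 ES cell markers examined, Pou5f1, Nanog and Sox2 among them, were detected on all 6 arrays. The levels below are normalized log2 intensities, in which 1 unit is a 2-fold difference. Differences are REST KO minus control from limma, fitted over the 11388 probes detected on at least 3 arrays, and a difference was called where its adjusted p was under 0.05. Across the array 145 probes were called, which is 1.27% of those tested.

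In epithelial cells, E-cadherin (Cdh1) binds its like on the neighbouring cell and is anchored to actin through catenins. It is also the main adhesion molecule of undifferentiated mouse ES cells. During EMT the zinc-finger factors ZEB1, ZEB2, SNAIL and SLUG bind E-box motifs in promoters of epithelial genes, recruit corepressors and shut those genes off, while N-cadherin (Cdh2) takes the place of E-cadherin. ESRP1 opposes this programme by directing epithelial splicing. The miR-200 family of microRNAs silences the ZEB transcripts and is itself repressed by the ZEB factors.

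The mature miR-200 family sequences are shown because they are the established direct regulators of 2 of the repressors. They are from RefSeq (GRCm38.p6) on chromosomes 4 and 6, and capitals mark the seed, bases 2 to 8. These microRNAs were not measured on the array.
mmu-miR-141-3p: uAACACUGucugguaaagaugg
mmu-miR-200a-3p: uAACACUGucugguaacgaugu
mmu-miR-200b-3p: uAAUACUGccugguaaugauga
mmu-miR-200c-3p: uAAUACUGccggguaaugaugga
mmu-miR-429-3p: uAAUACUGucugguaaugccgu
The first 2 share the seed AACACUG and the other 3 share AAUACUG.

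The E-box that ZEB and SNAIL factors recognise was searched as CAGGTG on both strands, so also as CACCTG, in RefSeq promoters running from 250 bases before to 50 after the transcription start. Of 32851 such windows 6640 (20.2%) held it. Shown here, with the E-box in capitals, are the windows of Epcam, the cell adhesion gene that lacked a probe, of Krt18, a keratin gene that rose in REST KO cells, and of Rab25, an epithelial trafficking gene whose levels ran close to those of Cdh1.
Epcam, chr17:87635729-87636028, plus strand: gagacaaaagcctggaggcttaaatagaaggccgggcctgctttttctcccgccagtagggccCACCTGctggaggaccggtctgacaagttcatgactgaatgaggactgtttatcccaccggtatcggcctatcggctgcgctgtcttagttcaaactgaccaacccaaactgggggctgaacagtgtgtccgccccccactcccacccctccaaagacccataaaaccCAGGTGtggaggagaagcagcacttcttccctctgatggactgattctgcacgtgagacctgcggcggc
Krt18, chr15:102027966-102028265, plus strand: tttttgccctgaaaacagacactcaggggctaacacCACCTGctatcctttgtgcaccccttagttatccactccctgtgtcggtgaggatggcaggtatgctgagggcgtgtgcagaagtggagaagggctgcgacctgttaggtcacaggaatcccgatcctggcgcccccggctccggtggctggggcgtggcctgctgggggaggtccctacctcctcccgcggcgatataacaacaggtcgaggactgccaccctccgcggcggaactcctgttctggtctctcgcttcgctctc
Rab25, chr3:88548230-88548529, minus strand: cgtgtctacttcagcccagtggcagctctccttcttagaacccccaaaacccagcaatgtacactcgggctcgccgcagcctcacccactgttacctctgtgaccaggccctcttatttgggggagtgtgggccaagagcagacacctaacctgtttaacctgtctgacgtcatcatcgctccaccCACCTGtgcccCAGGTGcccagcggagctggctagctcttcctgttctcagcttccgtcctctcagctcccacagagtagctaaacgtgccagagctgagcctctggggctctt
The matches begin 187 and 19 bases before the start in Epcam, 214 before it in Krt18, and 64 and 53 before it in Rab25. Among the repressors, the Snai1 window held 1 match, and the Twist1 window and the 4 Zeb2 windows held none. Only 4 of the 10 members (Epcam, Snai1, Twist1 and Zeb2) had a window that was used. The promoters of Zeb1, Cdh1, Cdh3 and Esrp1 are therefore not described. A match of 6 letters is a description of the sequence, not of binding.

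Of the 16 probes, 7 passed the detection filter, and they represent 5 genes: Zeb1, Twist1, Cdh1, Cdh3 and Esrp1. The other 9 probes were not tested. One of the 7, Zeb1, was called lower in REST KO cells. Between the genotypes 3 of the 7 probes did not overlap (Zeb1, Cdh1 and Esrp1), against 25.1% of all tested probes.

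**Figure D1:**
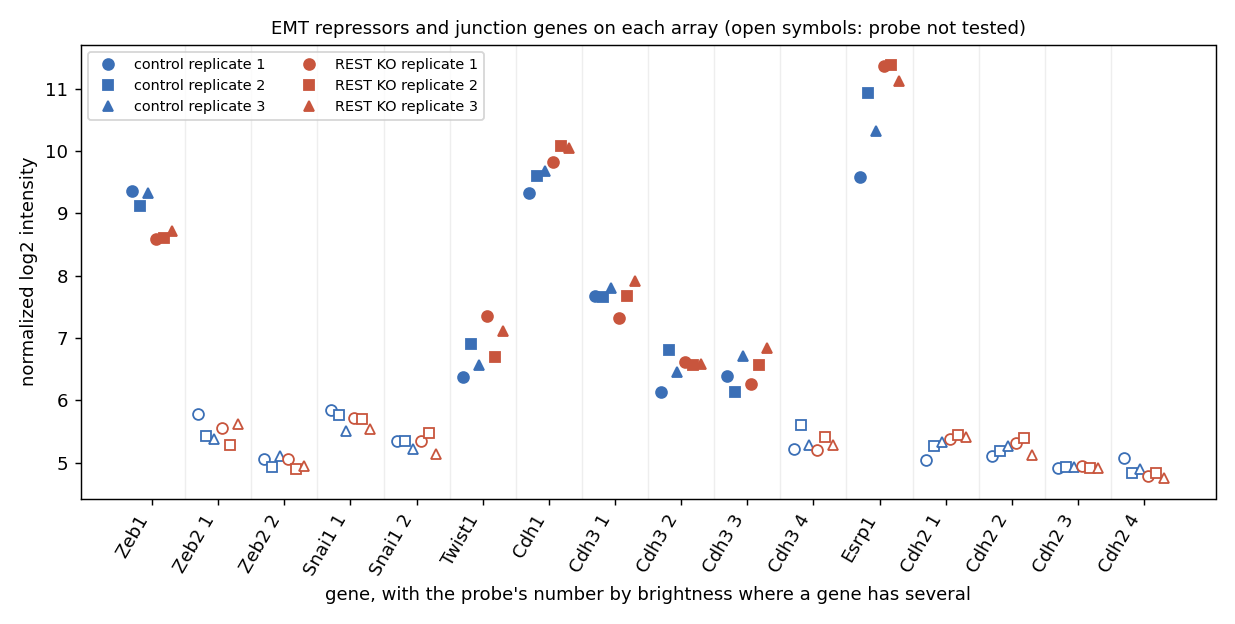
Normalized log2 intensity (vertical axis) of each of the 16 probes on each of the 6 arrays, blue for control and red for REST KO, with open symbols for probes that were not tested. The red symbols of Zeb1 lie below the blue ones, those of Cdh1 and Esrp1 lie above them, and the probes of Zeb2, Snai1 and Cdh2 all lie under 6.

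Zeb1, on chromosome 18, encodes the zinc-finger and homeodomain repressor that gives the ZEB family its name. Its level was 9.36, 9.12 and 9.32 in control replicates 1 to 3 and 8.59, 8.60 and 8.71 in REST KO replicates 1 to 3. Every REST KO array lay below every control array, and control replicate 2 was the lowest of the controls. Zeb1 fell by 0.63 ± 0.11 log2 units (SE, 3 arrays per genotype, 95% interval -0.89 to -0.38, adjusted p = 0.0468 by limma). This is a 1.55-fold lower signal, from 9.27 ± 0.13 to 8.63 ± 0.07 (SD). In raw intensity the probe read 598.8 to 804.5 in control and 462.2 to 524.3 in REST KO, and the bead-to-bead standard error on each array was 3.92% to 5.49% of the signal.

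The Zeb1 difference ranked 131 among the 11388 tested probes, close to the limit of what was called. Its adjusted p rose above the threshold without control replicate 1 (0.17), control replicate 3 (0.0856), or REST KO replicate 1 (0.212), 2 (0.199) or 3 (0.0984). The adjusted p was 0.0131 without control replicate 2, a fit that called 1668 probes on the whole array. In these 6 fits the difference stayed between -0.71 and -0.59. In the authors' deposited table the log2 fold change of Zeb1 was -0.54, with an adjusted p of 0.0139.

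Zeb2, the second ZEB family repressor, has 2 probes on chromosome 2. Neither was detected on any array, with levels of 4.90 to 5.79. Snai1, which encodes SNAIL, the early-acting repressor of Cdh1, also has 2 probes on chromosome 2. One was detected on control replicate 1 alone, and the levels of both ran from 5.13 to 5.85 over the 6 arrays. For both genes the arrays give background in each genotype, so no fold is given.

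Twist1, on chromosome 12, encodes a helix-loop-helix factor of mesoderm and neural crest that also induces EMT. Its level was 6.38, 6.90 and 6.57 in control and 7.35, 6.70 and 7.11 in REST KO replicates 1 to 3. REST KO replicate 2 lay below control replicate 2, so the genotypes overlapped. The difference was 0.44 ± 0.20 (SE, n = 3 per genotype, 95% interval -0.03 to 0.91, adjusted p = 0.282 by limma). Without control replicate 2 it was 0.58 ± 0.19 (adjusted p = 0.0913). All 6 arrays detected it, with detection p values of 0.00627 to 0.0175.

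Cdh1, on chromosome 8, encodes E-cadherin. Its level was 9.33, 9.60 and 9.67 in control and 9.83, 10.09 and 10.05 in REST KO replicates 1 to 3. All REST KO arrays lay above all control arrays, with a gap of less than 0.2 between control replicate 3 and REST KO replicate 1. The difference was 0.45 ± 0.13 (SE, n = 3 per genotype, 95% interval 0.14 to 0.76) and it was not called (adjusted p = 0.127 by limma). It ranked 912 by p. Without control replicate 2 it was 0.48 ± 0.14 (adjusted p = 0.0664). In the authors' deposited table it was 0.41 with an adjusted p of 0.0814.

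Cdh3, also on chromosome 8, encodes P-cadherin, the classical cadherin of placenta and basal epithelium, and has 4 probes. The brightest read 7.68, 7.66 and 7.80 in control and 7.32, 7.67 and 7.91 in REST KO, with REST KO arrays at both ends of the range. Its difference was -0.08 ± 0.16 (SE, 95% interval -0.45 to 0.29, adjusted p = 0.821 by limma). The next 2 probes in brightness differed by 0.12 ± 0.17 and 0.15 ± 0.20, with adjusted p values of 0.73 and 0.71, and the genotypes overlapped in both. The fourth probe was detected on no array. The 3 tested probes thus disagreed in sign, and all their intervals included 0.

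Esrp1, on chromosome 4, encodes the splicing regulator that favours epithelial isoforms of Fgfr2, Cd44 and Enah. Its level was 9.58, 10.94 and 10.33 in control and 11.37, 11.38 and 11.12 in REST KO replicates 1 to 3. The control arrays spread over more than 1 log2 unit, while the REST KO arrays lay together above all of them. The means were 10.28 ± 0.68 and 11.29 ± 0.14 (SD). The difference of 1.01 ± 0.31 (SE, n = 3 per genotype, 95% interval 0.28 to 1.73) was the largest among the 7 tested probes and was not called (adjusted p = 0.141 by limma).

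The Esrp1 difference moved with single control arrays. Without control replicate 2 it was 1.34 ± 0.22 with an adjusted p of 0.0167 by limma, in a fit that called 1668 probes on the whole array. Without control replicate 1, the array with the lowest level, the difference was 0.66 ± 0.20 with an adjusted p of 0.288. In raw intensity Esrp1 read 911.6, 1924.9 and 1406.2 in control and 2713.7, 2714.1 and 2364.8 in REST KO. The authors' deposited table gives a log2 fold change of 0.95 with an adjusted p of 0.0949.

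Cdh2, on chromosome 18, encodes N-cadherin, the cadherin of neural and mesenchymal cells. None of its 4 probes was detected on any array, with levels of 4.75 to 5.44. The arrays thus measured E-cadherin and P-cadherin transcripts above background in both genotypes, and N-cadherin transcripts in neither. A transcript under the detection limit of a probe is not shown to be absent.

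**Figure D2:**
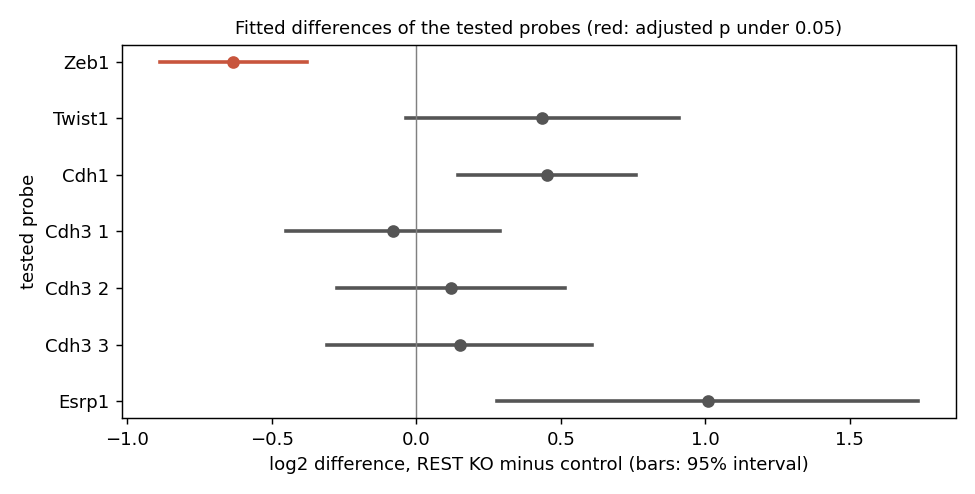
Fitted log2 difference, REST KO minus control (horizontal axis), of the 7 tested probes, with bars for the 95% interval and red for the called probe. The Zeb1 interval runs from -0.89 to -0.38, and those of Cdh1 and Esrp1 lie above 0, although neither passed the adjusted threshold over all tested probes.

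To set repressors beside junction genes on the same array, each tested gene was expressed as its deviation from its own mean over the 6 arrays, with the brightest probe for Cdh3. Zeb1 lay 0.41, 0.17 and 0.37 above its mean in control replicates 1 to 3 and at -0.36, -0.35 and -0.24 in REST KO replicates 1 to 3. Cdh1 lay at -0.43, -0.16 and -0.09 in control and 0.07, 0.33 and 0.28 in REST KO. On each of the 6 arrays Zeb1 and Cdh1 therefore deviated to opposite sides. This largely restates that the genotypes differed in opposite directions without overlap in these genes. Within the REST KO arrays the 2 genes were not opposed, as both were lowest in replicate 1.

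Esrp1 deviated by -1.21, 0.15 and -0.46 in control and by 0.58, 0.59 and 0.34 in REST KO. It was opposite to Zeb1 on 5 arrays and on the same side on control replicate 2, where Zeb1 was the lowest and Esrp1 the highest of the controls. Within the 3 control arrays the order of Zeb1 was thus the reverse of that of Esrp1, but not of that of Cdh1, which was highest in control replicate 3. Cdh3 showed no such opposition, at 0.01, -0.01 and 0.13 in control and -0.35, 0.00 and 0.24 in REST KO.

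Twist1 did not follow Zeb1. It deviated by -0.46, 0.06 and -0.26 in control and 0.52, -0.14 and 0.28 in REST KO. The mean over the 2 repressors therefore hardly separated the genotypes, at -0.02, 0.12 and 0.05 in control and 0.08, -0.24 and 0.02 in REST KO, a difference of -0.10 where the SD within a genotype was 0.07 and 0.17. The mean over the 3 junction genes was -0.54, -0.01 and -0.14 in control and 0.10, 0.31 and 0.29 in REST KO. All REST KO arrays were above all control arrays, and the difference of 0.46 exceeded the SD within a genotype, 0.28 in control and 0.11 in REST KO. The 3 genes did not move alike, and Esrp1 contributed most to this mean. Esrp1 differed by 1.01, Cdh1 by 0.45 and the brightest Cdh3 probe by -0.08. Without control replicate 1 the junction difference was 0.30, and without control replicate 2 it was 0.57. The repressor difference ran from -0.16 to -0.001 over the 6 arrays left out in turn, nearest to 0 without REST KO replicate 2. These means are descriptions of 6 arrays, with no test.

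**Figure D3:**
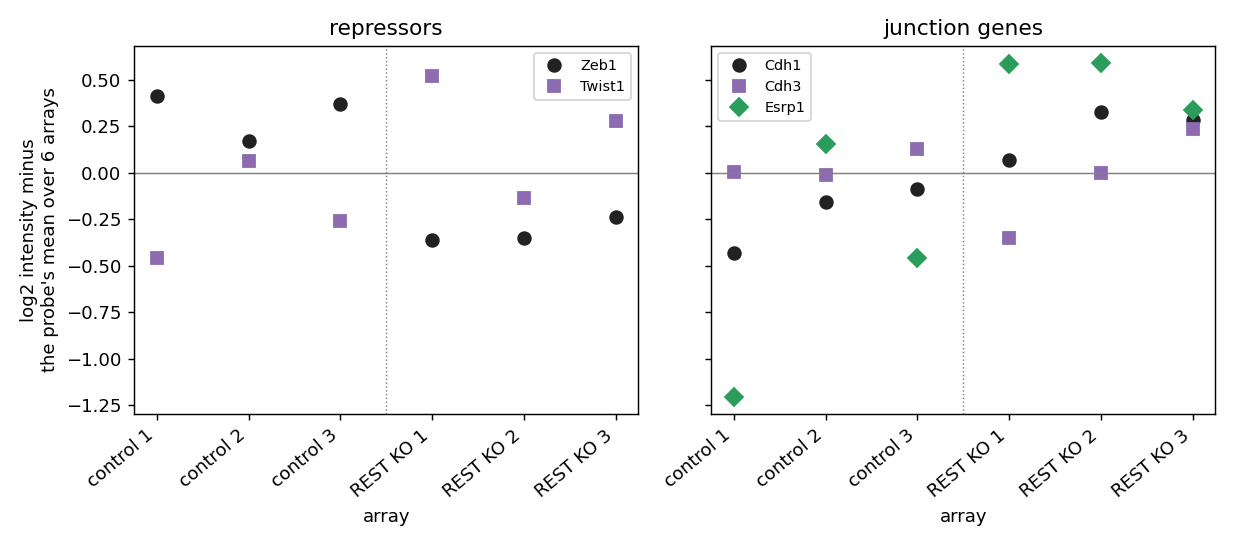
Deviation of each gene's log2 intensity from its own mean over 6 arrays (vertical axis), for the tested repressors (left) and junction genes (right) on each array (horizontal axis). Zeb1 is above 0 on the 3 control arrays and below it on the 3 REST KO arrays, and Cdh1 is the reverse, whereas Twist1 and Cdh3 have arrays of each genotype on both sides or at 0.

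The genes whose levels ran closest to Zeb1 over the 6 arrays were Babam2, Tle6, Rnft2 and Ppp1r15a, with Pearson's r of 0.9986 to 0.9939 by the brightest probe of each gene. Babam2, for example, was at 8.60, 8.37 and 8.52 in control and 7.89, 7.89 and 8.02 in REST KO. The most opposite were Proca1 (r = -0.9972) and Atp10a (r = -0.9961), a phospholipid flippase gene that rose by 1.09 ± 0.14 (SE, adjusted p = 0.0274 by limma). Of 8636 genes 173 had an r above 0.95 with Zeb1, and another 173 had one as strongly negative, so such values were common over 6 arrays that split by genotype.

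Closest to Cdh1 were Ina, which encodes a neuronal intermediate filament (r = 0.9959), Sqstm1, the autophagy receptor p62 (0.9927), the calcium channel gene Orai3 (0.9849) and Rab25 (0.9844). Rab25 was at 5.37, 5.83 and 5.80 in control and 6.08, 6.62 and 6.36 in REST KO, and only 1 control array detected it. Most opposite to Cdh1 were BC080695 (r = -0.9886) and Snx30 (-0.9871). Fewer genes ran this close to Cdh1, with 37 above 0.95 and 50 as strongly negative. These correlations describe the 6 arrays and share the genotype split.

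Lists of genes of the same pathway were then examined by the brightest tested probe of each gene, to place the members among their partners. Over all 8636 tested genes 1.11% were called higher and 0.255% lower, 47.7% had a difference above 0, and the median difference was -0.01. In the epithelial and adherens lists 2 genes were called, and both rose. No set test was made, and the counts and medians describe these lists.

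The catenins and adherens junction partners, which tie cadherins to actin and to neighbouring adhesion receptors, had 9 tested genes of 16. None was called in either direction, 6 differences were above 0, and the median was 0.10. The smallest p values were those of Ptprf, a receptor phosphatase of adherens junctions (0.53 ± 0.15, adjusted p = 0.124 by limma), Ctnnal1, an alpha-catenin relative (0.40 ± 0.12), Plekha7, a scaffold of the apical junction (-0.73 ± 0.22), and the actin linker vinculin, Vcl (0.31 ± 0.13). In the core of the cadherin complex beta-catenin, Ctnnb1, read 12.64, 12.78 and 12.65 in control and 12.81, 12.86 and 12.80 in REST KO, a difference of 0.13 ± 0.10 (adjusted p = 0.477). Ctnnb1 was chosen for mention after its values were seen.

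Epithelial polarity and tight junction genes had 13 tested of 24, none called, 9 above 0 and a median of 0.22. Cldn6, a claudin of early epithelia and pluripotent cells, came nearest to a call. It read 9.01, 9.10 and 9.60 in control and 10.13 on each REST KO array, a difference of 0.89 ± 0.16 (SE, n = 3 per genotype, adjusted p = 0.0523 by limma). F11r, the junctional adhesion molecule JAM-A, differed by 0.40 ± 0.11 (adjusted p = 0.117), Cldn3 by 0.78 ± 0.26 (0.165) and Lsr, a receptor of tricellular junctions, by 0.57 ± 0.21 (0.205). In the last 2 the genotypes overlapped.

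Desmosome and epithelial surface genes had 15 tested of 19, of which 1 was called higher and none lower, 9 were above 0, and the median was 0.18. Krt18, the type I keratin of simple epithelia, rose by 1.53 ± 0.22 (SE, adjusted p = 0.0337 by limma), from 6.57, 7.03 and 7.48 in control to 8.55, 8.71 and 8.41 in REST KO. Its partner Krt8 read 8.09, 8.16 and 9.11 in control and 9.45, 9.51 and 9.51 in REST KO and was not called (1.04 ± 0.26, adjusted p = 0.0953). The membrane protease gene Prss8 differed by 1.41 ± 0.34 (adjusted p = 0.0896).

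Epithelial transcription and splicing regulators had 12 tested of 16, with 1 called higher, none called lower, 8 above 0 and a median of 0.08. Tfap2a, a factor of surface ectoderm and neural crest, rose by 1.31 ± 0.23 (SE, adjusted p = 0.0492 by limma), from 5.98, 6.58 and 6.11 to 7.60, 7.88 and 7.13. Ovol2, a zinc-finger repressor of Zeb1 in epithelia, differed by 0.53 ± 0.17 (adjusted p = 0.151) and the genotypes did not overlap. Grhl2, an activator of Cdh1, read 7.47, 9.73 and 7.91 in control and 9.76, 9.80 and 9.31 in REST KO (1.25 ± 0.53, adjusted p = 0.251). Control replicate 2 again lay with the REST KO arrays, as it did for Klf5, a pluripotency and epithelial factor with 13.03, 11.26 and 12.77 in control and 10.56, 10.88 and 11.81 in REST KO (-1.27 ± 0.50, adjusted p = 0.221).

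Genes of the mesenchymal state, which EMT factors raise, had 17 tested of 31, with 4 called higher, none called lower, 15 above 0 and a median of 0.44. The smooth muscle actin gene Acta2 rose by 2.03 ± 0.31 (SE, adjusted p = 0.0384 by limma), from 10.48, 11.67 and 11.55 to 13.26, 13.50 and 13.02. The receptor kinase gene Axl rose by 1.03 ± 0.14 (adjusted p = 0.031). The actin-binding protein gene Tagln and the matrix gene Tnc rose by 1.45 ± 0.15 and 1.94 ± 0.22 (adjusted p = 0.0239 each), with only 1 control array detecting either, so these differences average in background. The mesenchymal list (17 tested genes) thus held more calls than the 4 epithelial and adherens lists together (49 tested genes). This was on the same arrays where Zeb1 was lower. Without control replicate 2, 8 of 17 mesenchymal genes were called higher. The other lists then had 1 of 9 adherens, 3 of 13 polarity, 4 of 15 desmosome and 3 of 12 epithelial regulator genes called higher. That fit called 1668 probes on the whole array. These differences in counts were not tested.

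The corepressors through which ZEB and SNAIL factors act had 12 tested of 14, none called, 5 above 0 and a median of -0.08. Ezh2, the methyltransferase of Polycomb complex PRC2, differed by -0.42 ± 0.12 (SE, adjusted p = 0.127 by limma) and its subunit partner Suz12 by -0.20 ± 0.12 (0.371). Limd1, a LIM protein, differed by 0.30 ± 0.13 (0.248) and the chromatin remodeller Smarca4 by 0.34 ± 0.24 (0.482). The list of TGF-beta and BMP pathway genes had 12 tested of 18, with 2 called higher, none lower, 9 above 0 and a median of 0.29. TGF-beta signalling induces EMT factors, and none of its tested ligand, receptor and Smad genes was called. The 2 called were the BMP-responsive helix-loop-helix inhibitors Id1 (2.00 ± 0.21, adjusted p = 0.0239) and Id2 (1.49 ± 0.21, 0.032). Id3 differed by 0.82 ± 0.24 (0.127) and the BMP receptor gene Bmpr1a by 0.47 ± 0.11 (0.0857).

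These list counts moved when single arrays were left out. Without control replicate 1, or without any single REST KO array, limma called 0 genes of every list in both directions. In each of these fits it also called 0 probes on the whole array. Without control replicate 2 it called 4 genes higher and 1 lower in the desmosome list, 3 and 3 among the epithelial regulators, 3 and 0 among the polarity genes, 1 and 1 among the adherens partners, 8 and 1 among the mesenchymal genes, 2 and 0 among the corepressors and 4 and 0 in the TGF-beta list. Without control replicate 3 the epithelial regulators had 0, the desmosome list had 3 higher and the polarity list 1. The mesenchymal and TGF-beta lists then had 5 and 2. On the whole array, limma called 1668 probes (843 lower) without control replicate 2 and 249 (18 lower) without control replicate 3. The list counts in these fits were not tested against the whole-array counts.

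**Figure D4:**
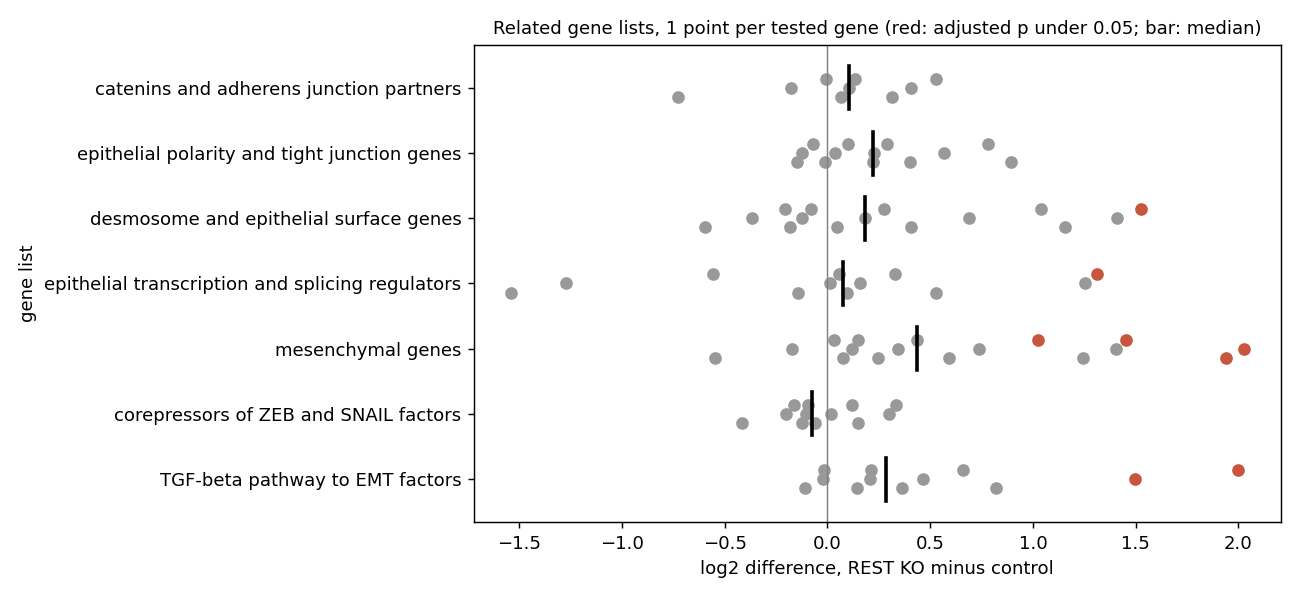
Log2 difference, REST KO minus control (horizontal axis), of every tested gene in the 7 lists, 1 point per gene, red where the adjusted p was under 0.05 and with a black bar at the list's median. The red points are 1 desmosome gene, 1 epithelial regulator, 4 mesenchymal and 2 TGF-beta pathway genes, all to the right of 0, and the medians run from -0.08 for the corepressors to 0.44 for the mesenchymal genes.

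Markers of other cell types moved with some of these results. The summed signal of the 8 ES cell markers (normalized intensity above the offset) was 78909 to 107931 in control and 75124 to 88320 in REST KO. The brightest of them, Dppa5a, was at 15.76 to 15.82 on all arrays and makes up most of each sum. The naive pluripotency factor genes Esrrb and Zfp42 differed by -1.01 ± 0.41 (SE, adjusted p = 0.228 by limma) and -0.99 ± 0.45 (0.279). In Esrrb, Zfp42 and Nanog control replicate 2 lay within the range of the REST KO arrays. Zfp42, for example, read 12.73, 11.27 and 12.86 in control and 10.99, 10.98 and 11.93 in REST KO. Pou5f1 differed by -0.08 ± 0.12 (0.75), Nanog by -0.61 ± 0.40 (0.442) and Sox2 by -0.81 ± 0.17 (0.0714). Of 9 fibroblast markers 7, including Col1a1, Col1a2 and Pdgfrb, were detected on no array, and the summed signal of all 9 was 229 to 248 in control and 270 to 305 in REST KO. Here and below the sums include undetected probes, so the small sums hold much background and do not measure a cell type. Twist2, which is also in the mesenchymal list, was detected on no control array and on all 3 REST KO arrays, at 5.48 to 5.63 and 5.96 to 6.55 (adjusted p = 0.0706). Of 6 trophectoderm markers 3 (Krt7, Elf5 and Eomes) were detected on no array, while Gata3 rose by 0.91 ± 0.11 (adjusted p = 0.0239 by limma). Cdx2 read 7.33, 6.71 and 7.19 in control and 7.80, 7.87 and 7.62 in REST KO, without overlap, and was not called (0.69 ± 0.17, adjusted p = 0.0977). Tfap2c differed by -0.56 ± 1.03 (adjusted p = 0.805). The sum of the 6 trophectoderm markers was 4564, 501 and 4360 in control replicates 1 to 3 and 1137 to 2833 in REST KO. Most of it was Tfap2c, at 12.08, 8.21 and 12.01 in control and 9.57, 9.77 and 11.28 in REST KO. The low control sum was thus that of control replicate 2 alone.

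Of 8 primitive endoderm markers 4 (Gata4, Sox17, Foxa2 and Pdgfra) were detected on no array, and the sum was 773 to 1428 in control and 1024 to 1335 in REST KO. Sox7, another of them, was called lower: it was detected on all 3 control arrays, at 6.23 to 6.38, and on no REST KO array, at 5.48 to 5.49 (adjusted p = 0.0239 by limma). Of 7 neural progenitor markers 4 (Sox1, Pax6, Pax3 and Olig2) were detected on no array, and the sum, with their background included, was 147 to 175 in control and 200 to 231 in REST KO. Nes, the intermediate filament nestin, was detected on no control array and on all 3 REST KO arrays, at 5.14 to 5.64 and 6.14 to 6.64 (adjusted p = 0.0504). Among the neural crest markers Pax7 and Foxd3 were detected on no array, the sum over the 3 genes with a probe was 91 to 126 in control and 163 to 256 in REST KO, and Tfap2a was the only one of the 3 detected. The part of these cell types in the differences of Zeb1, Cdh1 and Esrp1 was not tested. In bulk RNA, fewer cells that express a gene and less RNA per cell cannot be told apart.

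The members' calls also moved with the processing. Zeb1 was called in 5 of 14 alternative settings, with adjusted p values from 0.0131 to 0.212 and a difference of -0.71 to -0.54. Cdh1 was called in none (0.0632 to 0.346) and was positive in all of them, at 0.35 to 0.53. Esrp1 was called in 2, with array weights and without control replicate 2, and was positive in all, at 0.66 to 1.34. The 5 settings that called Zeb1 called 274 to 1668 probes on the whole array, against 145 as reported. The 2 settings that called Esrp1 were those that called the most probes, 1386 and 1668.

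**Figure D5:**
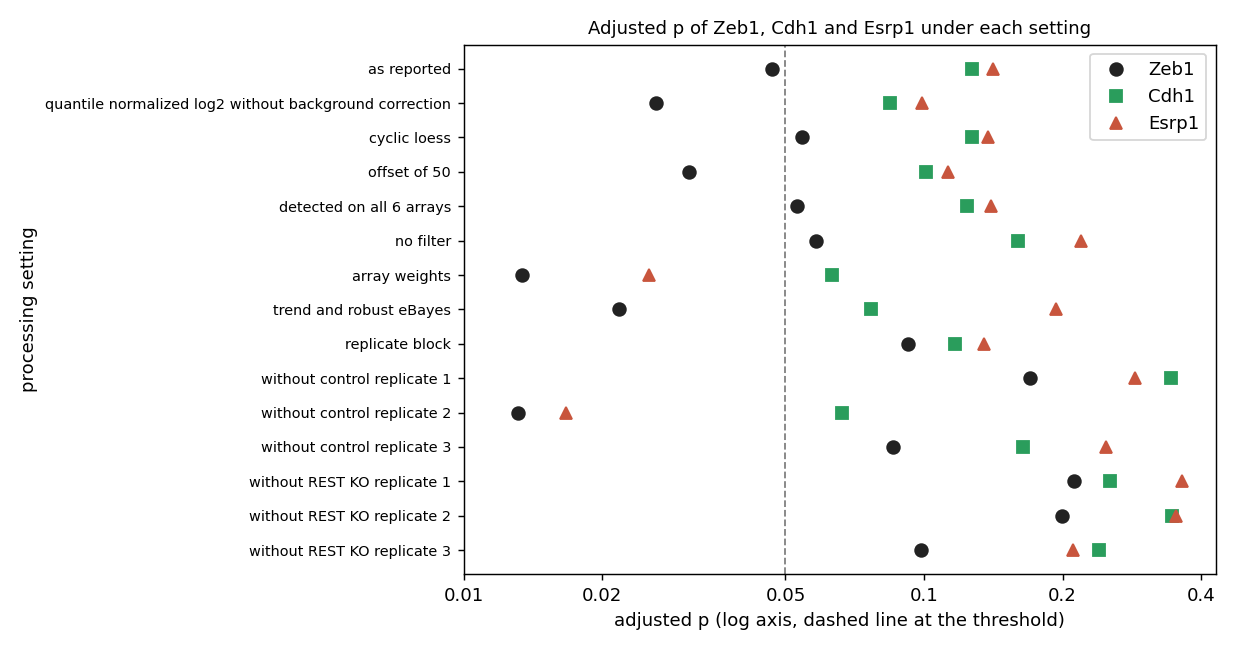
Adjusted p by limma (horizontal log axis, dashed line at 0.05) of Zeb1, Cdh1 and Esrp1 as reported and under each of 14 alternative settings (vertical axis). Zeb1 lies left of the line in 5 alternatives, Esrp1 in 2 and Cdh1 in none.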

How the data were processed

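Total RNA of 6 samples was hybridised to Illumina MouseRef-8 v2 arrays. The authors exported each probe's mean intensity from BeadStudio 3.3.7 without normalizing it, as stated per the file headers. The deposited tables also give bead numbers and a detection score, a fraction that rises with signal, so that the detection p used was 1 minus this score. The authors' deposited log2 values matched quantile normalized log2 intensities to within 5e-09. Their deposited p-values and log2 fold changes, made with limma per the labels, are printed only where credited, and the deposited table holds 448 of 25695 probes with an adjusted p under 0.05. A genome build for it is not given in the sources used here, so only chromosomes are printed for genes.

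From the intensities, neqc (limma 3.58.1, R 4.3.3) corrected background by detection p, added an offset of 16, which shrinks differences of dim probes, and quantile normalized. Probes whose detection p was under 0.05 on 3 or more of the 6 arrays were tested with lmFit and eBayes on genotype, two-sided, with Benjamini-Hochberg adjustment over all 11388. Separate cultures are not named in the labels, and p-values then cover only how these 6 samples vary, possibly for technical reasons. Replicates of a genotype differed by 2.18 to 5.93 times what bead error gives (median squared log2 difference), so none was merged. The number of arrays limits precision. The script was tested on simulated data.

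Of all probes 22251 carried a symbol in the authors' table and 3446 were named by target; names were updated through RefSeq (GRCm38.p6). The brightest tested probe stands for a gene in a list. Named genes are all members, the called genes of a list (at most 4, by smallest p) or, with fewer than 4 called, the 4 tested genes of smallest p, Pou5f1, Nanog and Sox2, and the genes of highest and lowest correlation with Zeb1 and Cdh1. One gene that this rule names is not reported here. The members and lists were chosen with earlier results of these data known. Other settings tried were the background correction, normalization, offset, filter, array weights, eBayes options, replicate block and leaving out each array.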

Additional observations from a re-analysis of the deposited data

How the results depend on the processing

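Probes called numbered 145, against 332 by quantile normalization without background correction (73 lower), 138 by cyclic loess, 274 with an offset of 50 (55 lower), 69 with detection on all 6 arrays (7 lower), 50 with no filter (4 lower), 1386 with array weights (656 lower) and 364 with trend and robust eBayes (92 lower). Leaving out 1 array gave 0 to 1668. Limma called 0 without control replicate 1 or any 1 REST KO array (1445 to 2085 at an unadjusted p under 0.05), 1668 without control replicate 2 (843 lower) and 249 without control replicate 3. With the replicate number as a block 0 were called (2376 unadjusted, 0.0921 for Zeb1). Whether numbers shared by control and REST KO samples pair them was not settled. Correlations of deviations were -0.27, 0.34 and 0.36 for numbers 1 to 3, and -0.55 to 0.45 between unlike numbers. The Zeb1 call was also lost by cyclic loess (adjusted p 0.0543), detection on all 6 arrays (0.0529) and no filter (0.0582), at a difference of -0.62 to -0.63. Esrp1 was called with array weights (1.20 ± 0.24, adjusted p 0.0253). Cdh3 turned sign in its second probe without control replicate 1 (-0.043, range -0.043 to 0.29 over arrays left out) and in its brightest without REST KO replicate 1 (0.078, range -0.22 to 0.078). Twist1 stayed positive and uncalled (0.25 to 0.61). The mean difference of the junction genes was 0.44 to 0.51 and that of the repressors -0.14 to -0.08 under 4 alternatives, and 0.30 to 0.57 and -0.16 to -0.001 with 1 array left out. These means and the list counts without each array were chosen after seeing the data. The cause of these changes was not tested.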

Other observations

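The E-box letters were also counted in the promoters of the epithelial and adherens genes. Of the 49 tested genes in the 4 lists 33 had a RefSeq promoter window that was used (GRCm38.p6). Of their 41 windows 20 (48.8%) held CAGGTG or CACCTG, against 1603 of 8769 windows (18.3%) of tested genes. Chromosome 18 genes, such as Ctnna1 and Dsg2, were left out of the list windows but not of the 8769. Mean GC content was 63.3% and 60.7%. The difference between REST KO and control was above 0 in 12 of 20 genes with the motif, at a median of 0.19, and in 11 of 13 genes without it, at a median of 0.10. Krt18, Krt8, Cldn6 and Rab25 were among those with it. Tfap2a, which rose, and Ptprf had none in the windows used. These are counts with no test, and some genes have several windows.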
